A study of Mus musculus with 18 samples.

Results

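RNA was sequenced from mouse bone marrow derived macrophages in which the gene of ribosomal protein L13a had been knocked out, and the response of these cells to IFN is described here over all genes that could be tested. The response was taken from 6 of the 18 libraries of the series: 3 from untreated knockout cells, numbered 1, 2 and 3 in their titles, and 3 from knockout cells treated with IFN, numbered 4, 5 and 6. Wild type cells, called control in the titles, were left untreated (libraries 1, 2 and 3) or received IFN (libraries 4, 5 and 6), and serve here for a test of the difference between the genotypes, as a reference beside some values, and in the shared estimate of the spread. The remaining 6 libraries, from IL4-treated cells of both genotypes, entered that estimate too. The labels call the knockout macrophage-specific, and name neither the driver of the deletion, nor the type of interferon, its dose, the duration of treatment, the strain or the age of the mice. Nor is it stated if a group's 3 libraries stem from different mice or dishes, so the p-values measure the spread between these libraries, which may be technical. Of 21954 genes in the table, 12514 passed the filter on low counts and were tested.

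Interferons act through receptor-bound Janus kinases (JAKs), which phosphorylate STAT transcription factors. STAT dimers formed mainly after interferon-gamma bind the gamma activated site (GAS), while a complex of STATs with IRF9, and the interferon regulatory factors (IRFs) themselves, bind the interferon-stimulated response element (ISRE). In macrophages the genes reached in this way serve antigen presentation, attack on intracellular microbes and recruitment of T cells. L13a belongs to the large ribosomal subunit and is also known as a part of the GAIT complex, which represses translation of a group of inflammatory transcripts in myeloid cells after interferon-gamma. RNA levels, the only quantity measured here, do not report on translation.

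Several induced genes carried these motifs just before their start. The stretches below, from RefSeq on GRCm38.p6 and written 5′ to 3′ on the strand of the gene, show such sites in a regulator, a feedback inhibitor, a chemokine, a GTPase, an Fc receptor, a protease inhibitor and the light chain of MHC class I. Capitals mark the motif, TTCNNNGAA for GAS, and for ISRE a GAAA followed, after a pair of bases of any kind, by a further GAAA, searched on both strands.
Irf1, GAS, chr11:53769909-53769947, plus strand: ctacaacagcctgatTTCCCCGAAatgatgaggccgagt
Serpina3f, GAS, chr12:104214408-104214446, plus strand: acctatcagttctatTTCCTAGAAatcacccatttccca
Fcgr1, GAS, chr3:96294055-96294093, minus strand: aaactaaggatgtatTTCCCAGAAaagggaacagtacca
B2m, ISRE, chr2:122147533-122147572, plus strand: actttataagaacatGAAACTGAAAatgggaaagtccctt
Cxcl10, ISRE, chr5:92349078-92349117, minus strand: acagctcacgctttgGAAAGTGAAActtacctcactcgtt
Socs1, ISRE, chr16:10785589-10785628, minus strand: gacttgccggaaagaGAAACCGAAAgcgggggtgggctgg
Igtp, GAS, chr11:58199496-58199534, plus strand: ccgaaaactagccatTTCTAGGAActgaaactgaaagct
Igtp, ISRE, chr11:58199507-58199546, plus strand: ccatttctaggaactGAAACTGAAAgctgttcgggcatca
In Igtp, a p47 GTPase, the motifs stood side by side, so its stretches overlap. The Socs1 stretch holds a further ISRE that overlaps the capitals and is left in lower case. A match describes the letters only and does not show binding.

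Total expected counts of the 6 knockout libraries ran from 18098711 to 27656879. The first principal component, with 54.9% of the variance among them, parted IFN from untreated libraries. The next, with 23.5%, spread the libraries of each group, with 1 and 4 at one end and 3 and 6 at the other. Macrophage markers were present in all 6 libraries. Csf1r, the receptor of the growth factor CSF1, stood at 4188, 3935 and 3073 CPM (expected counts scaled to library size with TMM factors) in untreated libraries 1 to 3 and at 3558, 3678 and 3418 CPM in IFN libraries 4 to 6. Adgre1, which encodes F4/80, ranged from 1811 to 2579 CPM and from 1478 to 2866 CPM. Of 24 macrophage identity genes, all of them tested, 4 were called higher (16.7%), 4 lower (16.7%) and 16 were not called. Over all tested genes these shares of calls were 12.2% and 8.42%. Marker transcripts of other cells were present at lower sums, taken over the tested members of each list. The 13 tested fibroblast markers summed to 208.6, 96.18 and 351.7 CPM in untreated libraries and to 36, 209.9 and 636.7 CPM after IFN. The 4 tested T and NK cell markers summed to at most 3.366 CPM in any of the 6. None of the 13 tested fibroblast markers was called by edgeR. The sum of the 6 tested bone-forming cell markers, which include the macrophage-expressed Spp1, was 836.9, 1021 and 1217 CPM untreated. After IFN it was 259.1, 525.2 and 593.6 CPM, and 1 of the 6, Spp1, was called lower (-1.37). Osteoclast markers summed to 156.5 to 254.5 CPM over the 6 libraries, and erythroid and megakaryocyte markers to 47.96 to 271.4 CPM. Endothelial markers summed to 9.271 to 27.78 CPM and dendritic cell markers to 57.57 to 106.8 CPM untreated and 87.64 to 182.7 CPM after IFN. In RNA from mixed cells, fewer cells of a type and less RNA per cell cannot be told apart.

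Reads assigned to the targeted gene were still present. Rpl13a (ENSMUSG00000074129, GRCm38 chromosome 7, 45125558 to 45128761, minus strand) stood at 156.2, 201.4 and 400.5 CPM in untreated knockout libraries 1, 2 and 3, and at 247.8, 188.9 and 424.8 CPM in IFN libraries 4, 5 and 6. The groups overlapped, with means of 253 ± 130 and 287 ± 123 CPM (SD, n = 3 each; log2 ratio 0.18, two-sided exact permutation p = 0.6, where 0.1 is the smallest that 3 against 3 can give). The ratio changed sign without untreated library 1 (log2 ratio -0.07) or without IFN library 6 (-0.21). Wild type libraries held 617.5 to 745.9 CPM untreated and 437.2 to 617.6 CPM after IFN. A count per gene does not tell which part of the Rpl13a transcript was left, and processed copies of Rpl13a could share its reads. The highest level of each knockout group was in untreated 3 and IFN 6, which also held most fibroblast transcripts. The part of cells without the deletion in these reads was not tested. Lyz2, the lysozyme gene whose locus drives a widely used myeloid Cre, was at 1.85 to 5.78 CPM in untreated and 1.19 to 2.95 CPM in IFN-treated knockout libraries (log2 ratio -0.90, exact permutation p = 0.3), against 10680 CPM or more in untreated wild type libraries.

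IFN changed 20.6% of the tested genes of the knockout cells, and the largest changes were rises. At an adjusted p under 0.05 in edgeR's quasi-likelihood test, 1527 genes were higher (12.2% of those tested) and 1054 lower (8.42%) in IFN-treated than in untreated knockout libraries. Of the genes called higher, 794 rose at least 2-fold, 215 of them between 4-fold and 16-fold and 165 by 16-fold or more. Of those called lower, 526 fell at least 2-fold, and 27 by 16-fold or more. The genes called higher made up 14.5 to 15.6% of all counts in the untreated libraries and 32.3 to 34.7% after IFN. In 2516 of the 2581 called genes the 3 IFN and 3 untreated libraries did not overlap. Over all tested genes 18.8% had every IFN library above and 15.7% every IFN library below the untreated ones.

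The balance of rises and falls depended on the scale. On the deposited TPM, a level per transcript length, tested with limma on log2(TPM + 1), 866 genes were higher and 3159 lower, so that 21.5% of calls were rises against 59.2% in the counts. On that scale the median gene stood at -0.31, against -0.03 with TMM. Changes close to these medians are therefore not given a direction below unless both scales share it. Leaving out the knockout libraries with most fibroblast transcripts, untreated 3 and IFN 6, left 1006 genes called higher and 663 lower, and fitting the 6 knockout libraries alone left 661 lower.

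**Figure D1:**
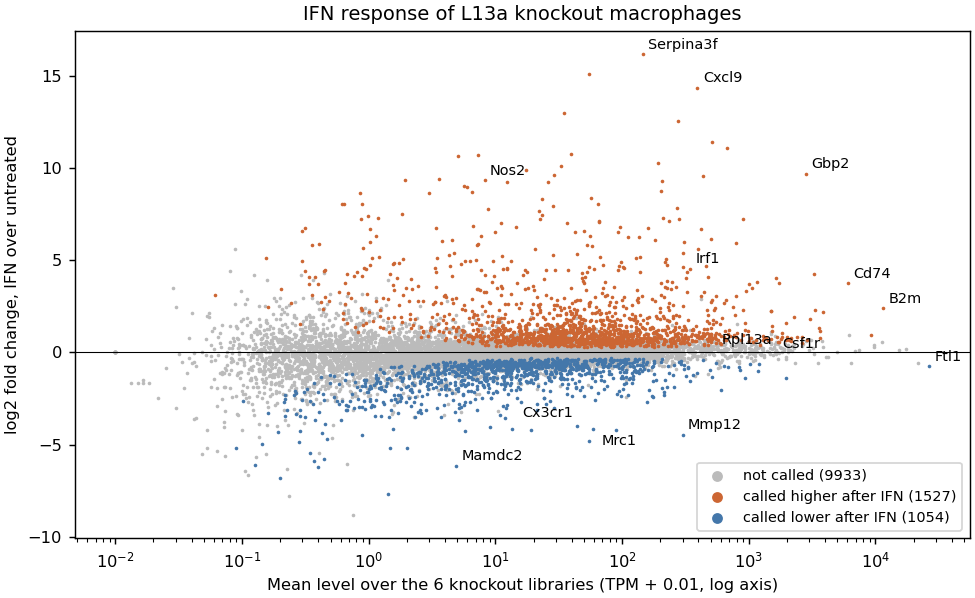
Log2 fold change of IFN-treated over untreated knockout cells (3 libraries each) against the mean level of each of the 12514 tested genes, in TPM + 0.01 on a log axis. Orange points are the 1527 genes called higher, blue the 1054 called lower and grey those not called. The rises reach much further from 0 than the falls.

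The largest rises were those of guanylate binding proteins, p47 GTPases, Serpina3 protease inhibitors and Cxcl9. Serpina3f (ENSMUSG00000066363, chromosome 12, 104214544 to 104221129), a serine protease inhibitor, had no count in the 3 untreated libraries and 413.9, 442.7 and 375.3 CPM after IFN, at least 11100-fold higher against a floor of 3 counts over the untreated group. Gbp2b likewise went from no count to 95.61, 218.1 and 284 CPM, at least 5260-fold higher. Cxcl9, a chemokine that attracts T cells through CXCR3, was at 0, 0.238 and 0 CPM before and 792.5, 1939 and 1631 CPM after (log2 fold change 14.37, SE 1.22, adjusted p = 2.19e-06). Such a fold change rests on 5 counts in the untreated group and is imprecise.

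Gbp10 held 1 count in the untreated libraries and 8131 after IFN, a ratio of 11800 with an exact 95% counting interval of 2120 to 468000. Sectm1a, Tlr12 and Tlr11 also started from 3 counts or fewer, with ratios of 2030 (693 to 9830), 2390 (429 to 94600) and 498 (137 to 4120). Intervals and floors cover counting error only. Tlr11 and Tlr12 encode endosomal sensors of protozoan profilin. Klrk1, which encodes the receptor NKG2D, and the chloride channel gene Clic5 were among the 16 largest rises too, at log2 fold changes of 9.61 and 10.13.

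Gbp2 became one of the most abundant transcripts. It stood at 7.52, 12.2 and 12.8 CPM untreated and at 8892, 9822 and 8425 CPM after IFN (ENSMUSG00000028270, chromosome 3, 142620602 to 142638008; log2 fold change 9.71, SE 0.585, adjusted p = 1.85e-08). By mean TPM it moved from rank 8072 to rank 16 of all genes, from 8.69 to 5640 TPM. B2m, the light chain shared by MHC class I molecules, rose from rank 17 to the first rank, from 4530 ± 1000 to 18500 ± 2260 TPM (SD, n = 3).

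**Figure D2:**
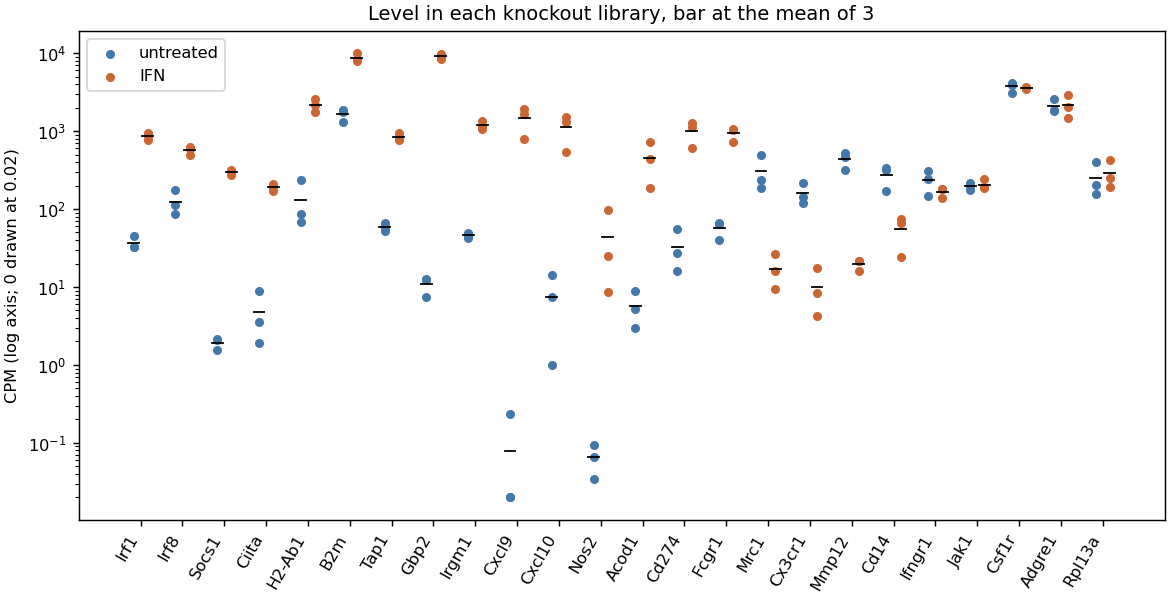
Level of 24 genes in each knockout library, in CPM on a log axis, with blue points for the 3 untreated libraries, orange points for the 3 IFN libraries and a bar at the mean. The genes from Irf1 to Fcgr1 lie higher after IFN in all 3 libraries, those from Mrc1 to Cd14 lie lower, and the points overlap from Ifngr1 to Rpl13a. A value of 0 is drawn at 0.02.

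Among the genes of the signalling pathway itself, the receptors of interferon-gamma did not pass the test, while several kinases and STATs rose. Ifngr1, the ligand-binding chain, stood at 304.4, 244.2 and 148.6 CPM untreated and 180.9, 181.7 and 138.3 CPM after IFN (log2 fold change -0.48, adjusted p = 0.22). It was called lower without untreated library 3 (-0.74, adjusted p = 0.0398) and by limma on log2(TPM + 1) (-0.80, adjusted p = 0.046). Ifngr2 had a log2 fold change of 0.00 (SE 0.168) and the kinase gene Jak1 of 0.07 (SE 0.137), with overlapping libraries. Ifnar1, a chain of the type I interferon receptor, fell (-0.68, adjusted p = 0.0104), while Ifnar2, which encodes the other chain, was called higher. Jak2 rose from between 37.1 and 42.7 CPM to between 98.8 and 154.1 CPM (1.55, SE 0.193).

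Stat2, part of the complex that binds ISRE sites, rose by 2.76 (SE 0.394) and Stat3 by 1.80 (SE 0.19) on the log2 scale. In all, 6 of 10 receptor, JAK and STAT genes were called higher and 1 lower.

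Of 22 interferon-linked transcription regulators 11 rose and 1, Nfkb2, was called lower (-0.62), a call that ended without untreated library 2 or any 1 IFN library (adjusted p of 0.0553 to 0.131). Irf1, an early target of interferon signalling, went from 45.5, 32.3 and 32.2 CPM to 951.1, 856.2 and 761.9 CPM (ENSMUSG00000018899, chromosome 11, 53770014 to 53778374; log2 fold change 4.55, SE 0.389, adjusted p = 7.33e-07). Batf2, a partner of IRF1 in macrophages, rose by 6.29 (SE 0.328) from at most 2.70 CPM. Irf8, which shapes the myeloid lineage, and Irf2 rose by 2.19 and 1.62. Ciita, the master regulator of MHC class II, stood at 8.95, 1.91 and 3.53 CPM before and 208, 169.8 and 194.1 CPM after IFN (5.30, SE 0.548, adjusted p = 5.76e-06).

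Feedback inhibitors were induced unevenly. Socs1, which blocks JAK activity, rose from 1.57, 2.10 and 2.14 CPM to 275.2, 316.5 and 309.5 CPM (log2 fold change 7.28, SE 0.529, adjusted p = 1.47e-07). Socs3 rose by 2.71 (SE 0.371) and the phosphatase gene Ptpn2 by 1.34 (SE 0.189). Of 17 inhibitor genes 7 were higher, 1 was lower and 9 were not called. Their median log2 fold change was 0.12 in the counts and -0.16 on the TPM scale, so the sign of the list's median depended on the scale.

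The dynamin-like GTPases that attack vacuoles of intracellular microbes had the highest median among the lists. All 10 tested guanylate binding proteins were called higher, with a median log2 fold change of 9.03 (all tested genes: -0.03). Their summed level went from 42 to 48.41 CPM in untreated libraries to 13330, 15230 and 12440 CPM after IFN. Gbp4, for example, rose by 10.27 (SE 0.441) and Gbp8 by 8.04 (SE 0.256) on the log2 scale. Of 8 tested p47 GTPases 7 rose, the exception being Irgq (-0.43, adjusted p = 0.13), which was chosen after its values were seen. Iigp1 went from 0.374, 0.762 and 1.02 CPM to 1949, 2128 and 1770 CPM (log2 fold change 11.39, SE 0.634). Irgm1, which regulates other members, was already at 42.8 to 49.8 CPM and reached 1068 to 1363 CPM (4.69, SE 0.264). Gbp, Tgtp and Serpina3 genes have near-identical neighbours, so how reads were split among them is uncertain.

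**Figure D3:**
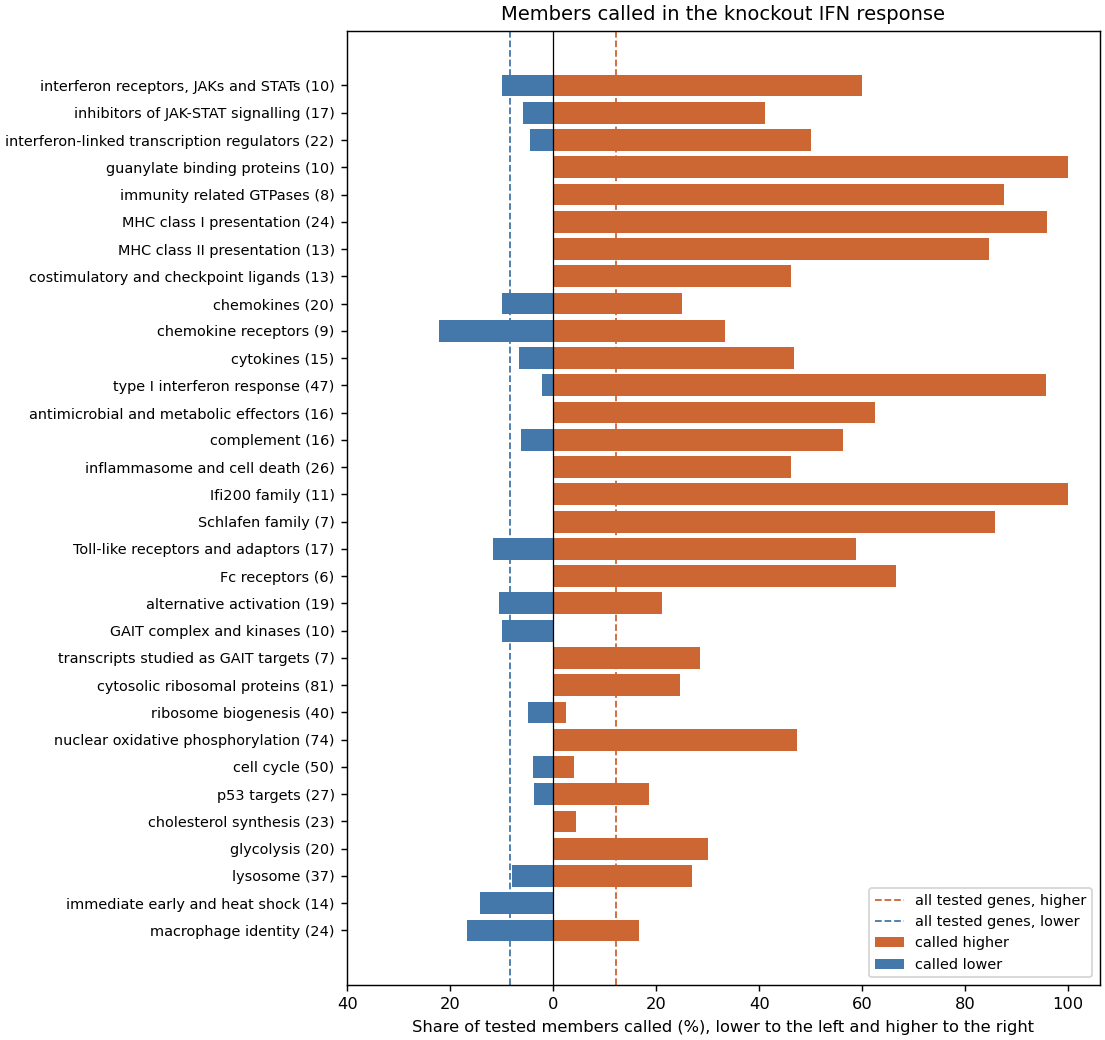
Share of the tested members of each gene list called higher (orange, to the right) or lower (blue, to the left) after IFN in knockout cells, with the number tested in brackets. Dashed lines give the shares over all tested genes, 12.2% and 8.42%. Guanylate binding proteins and the Ifi200 family reach 100%.

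Antigen presentation rose along both arms. In the MHC class I list 23 of 24 tested genes were called higher (median log2 fold change 2.72), the exception being the chaperone gene Canx. Tap1, a chain of the peptide transporter, stood at 65.8, 59.5 and 52.4 CPM untreated and 834.3, 938.3 and 757.2 CPM after IFN (3.83, SE 0.232, adjusted p = 1.85e-08). Psmb9, a subunit of the immunoproteasome, rose by 3.13 (SE 0.201), and Tapbpl, a peptide editor, by 3.56 (SE 0.177). B2m rose from 1847, 1752 and 1296 CPM to 8390, 9891 and 7802 CPM (2.41, SE 0.254). Counts of single H2 genes are uncertain for the same reason of close copies.

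In the class II list 11 of 13 genes rose (median 3.77), and Ifi30 and Lgmn were not called. H2-Ab1, a chain of the class II molecule I-A, was at 236.1, 68.1 and 85.3 CPM in untreated libraries 1, 2 and 3 and at 2548, 1760 and 2160 CPM after IFN (4.05, SE 0.541, adjusted p = 6.41e-05). Untreated library 1 thus held more than the other untreated libraries and still far less than any IFN library. H2-DMa, part of the peptide-loading catalyst, rose by 4.36 (SE 0.308). Of 13 costimulatory and checkpoint ligands 6 rose, among them Cd86, a ligand of CD28 (4.31, SE 0.312), and Cd274, which encodes PD-L1. Cd274 stood at 55.2, 27.1 and 15.9 CPM before and 1268, 1114 and 603.9 CPM after IFN (4.93, SE 0.629, adjusted p = 4.36e-05).

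Some chemokines rose. The CXCR3 ligand gene Cxcl10 rose from 0.987, 7.44 and 14.1 CPM to 530.9, 1512 and 1321 CPM (log2 fold change 7.22, SE 1.01, adjusted p = 9.72e-05). Ccl5, which attracts T cells and monocytes, rose from 2.48, 1.53 and 1.19 CPM to 19.6, 114.6 and 46.8 CPM (5.11, SE 0.869). The neutrophil attractant gene Cxcl2 was at 7.28, 31 and 21 CPM untreated and fell to 1.71, 1.04 and 0.416 CPM (-4.21, SE 0.976, adjusted p = 0.00595). Its call ended without untreated 3 and IFN 6 together (adjusted p = 0.0527). Of 20 tested chemokines 5 were called higher (25%) and 2, Cxcl1 and Cxcl2, lower (10%), against 12.2% and 8.42% of all tested genes. The falls numbered 1 without untreated library 2 or any 1 IFN library.

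Chemokine receptors were called in both directions, with 3 of 9 higher (33.3%) and 2 lower (22.2%). Over all tested genes these shares were 12.2% and 8.42%. Ccr1, a receptor of inflammatory CC chemokines, rose by 1.83 (SE 0.28). Cx3cr1, the fractalkine receptor, stood at 143.2, 117.7 and 214.3 CPM before and 8.29, 4.20 and 17.5 CPM after IFN (-3.99, SE 0.558, adjusted p = 9.72e-05). Cxcr4, the receptor of CXCL12, fell by 2.35 on the log2 scale (SE 0.591). Among 15 tested cytokines 7 rose (46.7%) and 1, Osm, was called lower (6.67%). The Osm call ended without untreated library 2 (adjusted p = 0.27), IFN library 4 (0.121) or IFN library 6 (0.105). The rises included Tnfsf10, which encodes the death ligand TRAIL, at a log2 fold change of 7.05 (SE 0.738) and Il18 at 2.09 (SE 0.271).

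Genes usually described as type I interferon targets rose almost without exception. Of 47 tested members 45 were called higher (median log2 fold change 2.76) and 1, Ifi27, lower (-1.40, adjusted p = 0.0221). The Ifi27 call ended without untreated library 2 (adjusted p = 0.0557), IFN library 5 (0.0851) or IFN library 6 (0.0915). Samhd1, which depletes nucleotides and restricts viruses, rose from 317.5 to 333.9 CPM in untreated libraries to 2984 to 3808 CPM (3.34, SE 0.20). Zbp1, a sensor of left-handed nucleic acid, rose by 7.22 (SE 0.529). All 11 tested members of the Ifi200 family of DNA sensors rose (median 4.76), and 6 of 7 Schlafen genes did (median 1.75). Members of these families are close copies, so the share of reads each received is uncertain.

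Effector genes of the classically activated macrophage were induced to widely different levels. Nos2, the inducible nitric oxide synthase, stood at no more than 0.0953 CPM untreated and at 8.65, 97.6 and 24.9 CPM in IFN libraries 4, 5 and 6 (log2 fold change 9.33, SE 1.2, adjusted p = 4.44e-05). IFN library 5 thus held far more Nos2 than the other IFN libraries. Acod1, the itaconate-making enzyme, was ordered alike, at 184, 727.3 and 434.3 CPM against 2.99 to 9.00 CPM untreated (6.28, SE 0.726). Of 16 antimicrobial and metabolic effectors 10 rose, 6 without untreated 3 and IFN 6. Among 20 glycolysis genes 6 rose (30%, against 12.2% of all tested genes). These included Hk3, a hexokinase (3.04, SE 0.261), and Pfkfb3, which makes an activator of phosphofructokinase (2.35, SE 0.279).

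Several complement and Fc receptor genes rose. Of 16 tested complement genes 9 were called higher (median 2.09), among them C1ra, a protease of the C1 complex (4.46, SE 0.35), and C4b (7.77, SE 0.813, from at most 0.340 CPM). C5ar1, the receptor of C5a, was the only complement gene called lower (-1.56, adjusted p = 0.0133), and was not called without untreated 3 and IFN 6 (adjusted p = 0.0759). Fcgr4, an activating IgG receptor, stood at 20.7, 16 and 19.9 CPM untreated and 1106, 1193 and 1159 CPM after IFN (5.93, SE 0.299, adjusted p = 2.99e-09). Fcgr1, the high-affinity receptor, rose by 4.04 (SE 0.319). Of 6 tested Fc receptor genes 4 rose and 2 were not called, and on the TPM scale these counts were 4 higher and 2 lower. In the list of Toll-like receptors and adaptors 10 of 17 rose, with Myd88, the shared adaptor, at 1.30 (SE 0.133). Cd14, the coreceptor for lipopolysaccharide, fell from 168.5, 340.1 and 312.7 CPM to 24.3, 65.8 and 75.4 CPM (-2.31, SE 0.449).

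The largest falls were seen in genes of several kinds. Mmp12, macrophage elastase, stood at 529.9, 315.5 and 466.4 CPM untreated and 21.9, 16.1 and 21.5 CPM after IFN (ENSMUSG00000049723, chromosome 9, 7344381 to 7369499; log2 fold change -4.46, SE 0.455, adjusted p = 4.47e-06). Mrc1, the mannose receptor CD206 and a common marker of alternative activation, fell from 237.2, 490.1 and 188.6 CPM to 9.43, 26.1 and 16 CPM (ENSMUSG00000026712, chromosome 2, 14229392 to 14332057; -4.15, SE 0.414, adjusted p = 3.49e-06). Nptx1, a pentraxin better known from neurons, was at 386.4, 601.6 and 392.3 CPM and fell to 12.7, 41.1 and 21.8 CPM (-4.19, SE 0.552). In each of these genes the lowest untreated library was above the highest IFN library, which the rule for naming the largest falls required.

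Mamdc2 showed the largest fall taken by the naming rule, from 34.4, 4.34 and 8.54 CPM to 0.207, 0.104 and 0.357 CPM (-6.14, SE 1.01, adjusted p = 0.000443), and untreated library 1 was far above the other untreated libraries. F13a1, a subunit of coagulation factor XIII, fell by 5.21 on the log2 scale (SE 1.18) and Gsta3, a glutathione transferase, fell by 4.79 (SE 1.14). Hpgd, which inactivates prostaglandins, fell by 4.17 (SE 0.802). In the list of alternative activation genes, which holds Mrc1, 4 of 19 were called higher (21.1%), 2 lower (10.5%) and 13 were not called. Over all tested genes 12.2% were called higher and 8.42% lower. One of the 13, Retnla, had no count in any of the 6 libraries and could not have been called. The rises numbered 2 when the 6 knockout libraries were fitted alone, and the falls 1 without untreated library 2 or without IFN library 6. Tgm2, a transglutaminase of that list, rose from between 234 and 375.2 CPM to between 1925 and 2168 CPM (2.84, SE 0.304), and Il4ra, the IL4 receptor chain, rose by 1.85 (SE 0.202).

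Of the genes of the GAIT complex and its kinases 0% were called higher and 10% lower, against 12.2% and 8.42% of all tested genes. A list this short cannot tell such shares apart. Of 10 tested members none was called higher and 1, Cdk5r1, lower (log2 fold change -1.48, adjusted p = 0.03). That call ended without untreated library 2 (adjusted p = 0.168) and without any of the 3 IFN libraries (adjusted p of 0.0647 to 0.0896). Of 7 tested transcripts that have been studied as GAIT targets, Ccl8 and Cp (28.6%) were called higher, again too few to set against the share of all genes. Ccl8, a monocyte chemokine, had no count untreated and 1.14, 4.20 and 2.97 CPM after IFN, at least 74.3-fold higher. Cp, ceruloplasmin, was at 1.60, 1.43 and 0.396 CPM before and 2.80, 17.9 and 3.09 CPM after (2.80, adjusted p = 0.0289), a call that ended without IFN library 5 (1.37, adjusted p = 0.28). It also ended without untreated library 1 (adjusted p = 0.0531), 2 (0.0701) or 3 (0.1). Vegfa, an angiogenic factor, stood at 108.6, 53.8 and 17.6 CPM and at 174.1, 189.5 and 73.2 CPM, with overlapping groups (1.28, adjusted p = 0.225).

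Subunits of the respiratory chain and of the ribosome rose in part. In knockout cells 35 of 74 nuclear genes of oxidative phosphorylation rose and none fell (median log2 fold change 0.70, and 0.33 on the TPM scale, where 17 were called higher and 2 lower). Their summed level was 5208, 5667 and 7057 CPM untreated and 9083, 8403 and 10010 CPM after IFN. Sdhb, a subunit of complex II, rose from 107.9 to 110.2 CPM to 219.2 to 238.1 CPM (1.05, SE 0.159, adjusted p = 0.000188). Without any 1 of untreated libraries 1 and 2 or IFN libraries 4 and 6 the count of rises was 18 to 20, and without untreated 3 and IFN 6 together it was 17. Of 81 tested cytosolic ribosomal protein genes 20 were called higher (24.7%, against 12.2% of all tested genes) and none lower. Their median was 0.39 (0.04 on the TPM scale, where 7 were called higher and 2 lower). Their sum was 23980, 23700 and 34590 CPM untreated and 39540, 27090 and 38730 CPM after IFN, so IFN library 5 lay below untreated library 3. The count fell to 6 without untreated library 1 or 2, to 5 without IFN library 4 and to 9 without IFN library 6, and was 24 without untreated library 3 and 30 without IFN library 5.

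**Figure D4:**
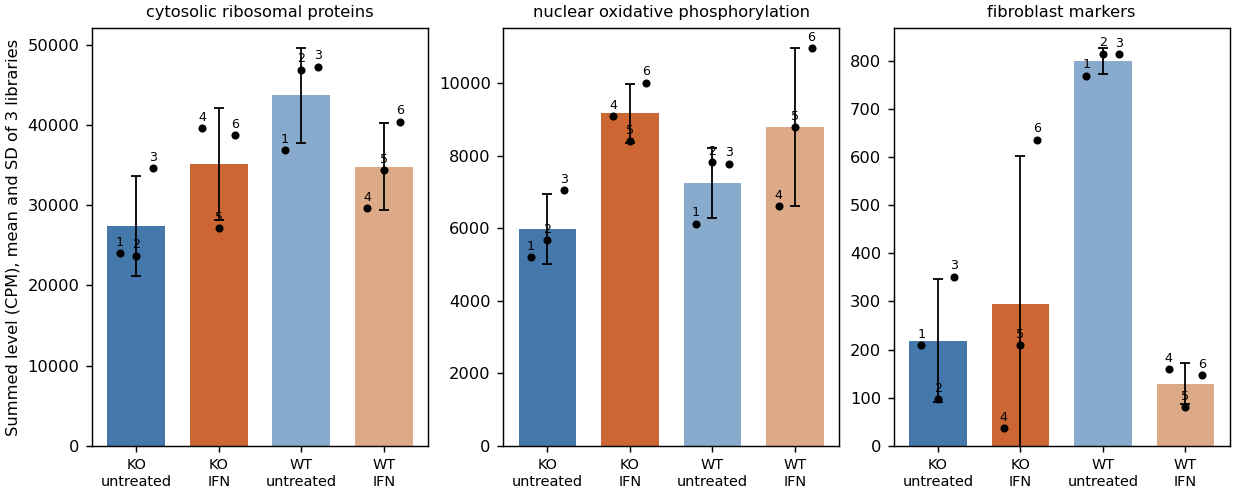
Summed level of 81 cytosolic ribosomal protein genes, 74 nuclear oxidative phosphorylation genes and the 13 tested fibroblast markers in each library, in CPM. Points are labelled with the library number, and bars give the mean and SD of 3 libraries. Ribosomal protein transcripts are higher after IFN on average in the knockout and lower in wild type, and fibroblast markers fall in wild type and differ widely between knockout libraries.

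Transcript length moved with both lists. Relative length was inferred from the ratio of expected counts to TPM, and tested genes with too few counts for it were left out. Over the shortest 20% of the remaining genes (2432) the median log2 fold change in the knockout was 0.21. With both lists left out it was 0.18. Over the longest 20% it was -0.15, while in wild type these medians were -0.03 and -0.01. Of the ribosomal protein genes 98.8%, and of the oxidative phosphorylation genes 85.1%, were among these shortest genes. The part of length in the rise of these lists was not tested.

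Few genes of growth were called. Of 50 cell cycle genes 2 were called higher and 2 lower (median -0.48), and of 40 ribosome biogenesis genes 1 and 2 (median -0.19). Over all tested genes 12.2% were called higher and 8.42% lower. The cell cycle median was -1.12 without IFN library 6 and 0.06 without untreated library 3, so its sign rests on that library. The rises, Pcna and Ccne1, numbered 0 without untreated library 1 or 2 or IFN library 5 or 6. The counts of falls were between 0 and 4 without single libraries, with 4 cell cycle genes lower without IFN library 6 and 4 biogenesis genes lower without untreated library 1. Mki67, a marker of dividing cells, was at 55.6, 154.8 and 187.9 CPM untreated and 33, 14.6 and 76.8 CPM after IFN, with overlapping groups (-1.68, adjusted p = 0.0442). Its call ended without untreated library 2 (adjusted p = 0.117) or 3 (0.146), or IFN library 4 (0.128) or 5 (0.146). On the TPM scale 23 of the 40 biogenesis genes were called lower. The p53 target Cdkn1a, an inhibitor of cell division, rose from 472.2, 406 and 328.4 CPM to 1079, 995.1 and 678.1 CPM (1.19, SE 0.227, adjusted p = 0.00146). Of 27 tested p53 targets 5 were called higher (18.5%) and 1 lower (3.7%), with a median of 0.32. On the TPM scale 2 of them were higher and 3 lower, with a median of -0.05. Of 37 lysosomal genes 10 rose and 3 fell. Ctsc, an activator of granule proteases, rose from 199, 237.1 and 242.3 CPM to 2694, 3201 and 2919 CPM (3.70, SE 0.206), and Atp6v0d2, a proton pump subunit, fell by 2.00 (SE 0.378). Without untreated library 3, or without IFN library 5, 6 of the lysosomal genes rose, and on the TPM scale 4 rose and 6 fell.

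GAS and ISRE letters in the 250 bases before the start were most common in promoters of the most strongly induced genes. Both strands were searched in 12366 RefSeq promoters of 9667 tested genes, and the motifs may overlap each other. An ISRE was present in 30.2% of 129 promoters of genes that rose 16-fold or more, in 14.3% of those that rose 4-fold to 16-fold, in 5.61% of those that rose 2-fold to 4-fold and in 2.9% of all. A GAS was present in 16.3%, 9.05% and 5.61% of the same classes and in 6.0% of all. Among genes called lower, an ISRE was in 2.12% and a GAS in 5.34% of 1087 promoters. Of the promoters in the highest class 40.3% held at least 1 of these motifs, and the rest held neither in this window.

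**Figure D5:**
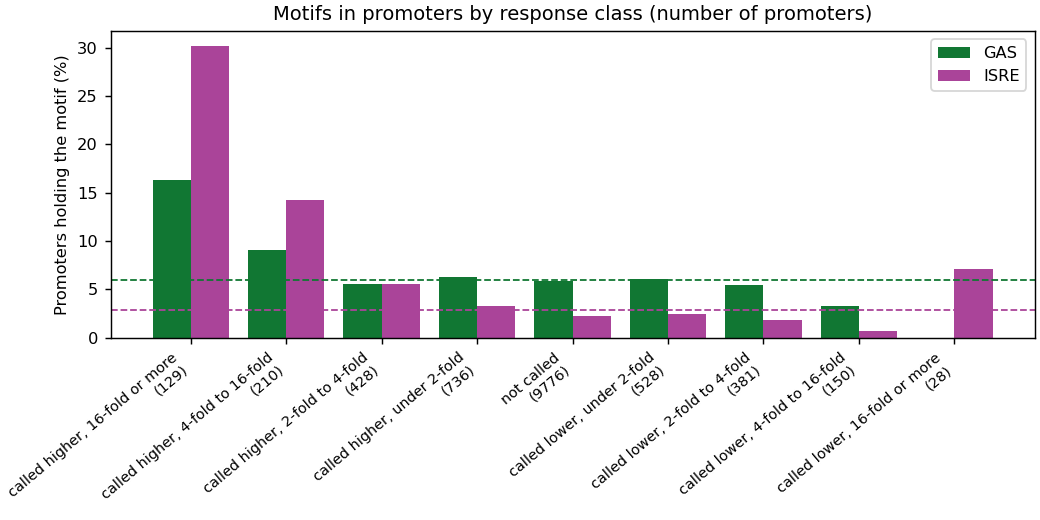
Share of promoters that hold a GAS (green) or ISRE (purple) in the 250 bases before the start, for classes of genes by their change after IFN in knockout cells, with the number of promoters in brackets. Dashed lines give the share over all tested genes, 6.0% and 2.9%. Both shares are highest in the most induced class, and the lowest class holds only 28 promoters.

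Whether the response differed from that of wild type cells was tested gene by gene as the difference of the fold changes. By edgeR no gene of 12514 was called (0% of those tested, smallest adjusted p 0.192), while 605 had an unadjusted p under 0.05. Wild type untreated libraries 2 and 3 were far more alike than any other pair of 1 group (chi-square per degree of freedom 6.01, against 51.6 to 185), though they differed by more than counting noise and were kept as separate libraries. The smallest adjusted p was 0.6 without untreated 2 and 0.654 without untreated 3. Y-linked transcripts summed to 134.2 to 185.2 CPM in wild type untreated 1, IFN 4 and IFN 5 and to at most 3.191 CPM in the other wild type and knockout libraries used here, so sex differed within wild type groups and partly between genotypes. Its part in the difference was not tested. DESeq2 called 26 genes, 24 of them with the larger fold change in the knockout, and edgeR without wild type IFN library 6 called 9. The wild type response held 2199 called genes, 1324 higher (10.6%) and 875 lower (6.99%). Across the 12514 genes the fold changes of the genotypes, which share no library, had a Pearson r of 0.771, and across the 2581 genes called in the knockout 0.954. The 2581 genes were chosen by the knockout response itself, which leaves out many genes near 0 and tends to raise r. Genes are not independent replicates, and each r is a description.

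The genes with the lowest p for the difference were Rps27, Rpl39, Rps21 and Supt4a. Rps27, a protein of the small ribosomal subunit, stood at 126.3, 94.5 and 104.1 CPM in untreated and 409.1, 251.8 and 311.6 CPM in IFN-treated knockout libraries (log2 fold change 1.58, SE 0.274, adjusted p = 0.000653). In wild type its log2 fold change was -0.74. DESeq2 gave a difference of 2.32 with an adjusted p of 2.07e-05. Of the 81 ribosomal protein genes 45 (55.6%) had an unadjusted p under 0.05 for the difference, against 4.83% of all tested genes, and in 79 the fold change was higher in the knockout. Members of a list are not independent replicates, and this count is a description. In wild type the ribosomal protein genes summed to 36870, 46890 and 47240 CPM in untreated libraries 1, 2 and 3. After IFN they summed to 29580, 34310 and 40410 CPM. Untreated sums were thus lower in every knockout library, while sums after IFN overlapped between genotypes. Wild type untreated 2 and 3 are the closely alike pair named above. The median log2 fold change of the ribosomal protein genes in wild type was -0.35, and that of the oxidative phosphorylation genes 0.19. Processed copies of many ribosomal protein genes may share reads with them, which makes these counts uncertain. The length of the transcripts, given above, moved with this difference too. So did fibroblast markers, whose sum was 769.8 to 815.3 CPM in untreated and 80.2 to 159.2 CPM in IFN-treated wild type libraries (median log2 fold change -2.64, against 0.14 in the knockout and -0.32 there on the TPM scale). The part of either in the difference was not tested.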

How the data were processed

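Libraries were made from poly-A RNA, per the labels' protocols. Bowtie 0.12.8, RSEM 1.2.3 and the mm10 build are named in the submitters' processing notes. The authors deposited expected counts per gene, TPM and a median-normalized TPM signal, per the file headers; the last was not used. Of the expected counts 21.5% were not whole, and they were rounded. Strandedness, and the annotation release, are not given in the sources used here.

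Here 12514 genes passed filterByExpr and were tested with edgeR 4.0.16 (TMM, robust quasi-likelihood fit on all 18 libraries, 1 coefficient per group; R 4.3.3), with Benjamini-Hochberg adjustment over all tested genes. The biological coefficient of variation was 0.301. Alternatives were DESeq2 1.42.0, other normalization and filters, fits without single libraries, and limma 3.58.1 on logged TPM with a pseudocount of 1 or 0.1. List medians on TPM and length bins were added after seeing the data, as were counts of list members by setting. Where the untreated group held 0 counts, folds are bounds against 3 counts over the group; at 1 to 3 counts, ratios carry an exact 95% interval. Medians of the 4 lists with such a gene at 0 did not change with it at its bound.

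Members and lists were chosen with earlier results of these data known, and gene lists come from textbook knowledge. Genes named were the 16 largest rises and 16 largest falls among called genes whose groups did not overlap and whose higher group averaged 5 CPM or more, up to 3 called members per list and direction with the lowest p (or, with none called, 1), preset genes, and the 4 lowest p for the difference. Predicted, Y-linked and mitochondrially encoded genes were not named, and the text gives a selection; some genes that the rule names are not reported here. Other members named (Irgq, Fth1, Canx, Ifi30, Lgmn, Ifnar2 and the genes of the closing section) were chosen after their values were seen.

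Of the tested genes 99.88% matched GENCODE vM21 (GRCm38), the source of gene positions. The test was checked on simulated data for 12514 genes: for the knockout response it found 4.478% of genes changed 1.5-fold, 46.27% changed 2-fold and 83.33% changed 4-fold, and 8 false ones; for the difference the shares were 1.493%, 13.43% and 68.18%, with 4. Only 67, 67 and 66 genes were changed by these folds, and noise was independent between genes. In the data 2581 genes were called and libraries of a group differed over many genes together. These shares therefore need not hold for the data.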

Additional observations from a re-analysis of the deposited data

How the results depend on the processing

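All 1527 genes called higher and 1053 of the 1054 called lower were also called by DESeq2, which called 1721 higher and 1354 lower. The counts were 866 and 3159 with limma on log2(TPM + 1), 859 and 3144 with log2(TPM + 0.1), 1006 and 663 without untreated 3 and IFN 6, and 389 and 116 when tested against a 2-fold change. With the 6 knockout libraries alone 1149 were higher and 661 lower. Leaving out 1 knockout library at a time gave 1137 to 1285 higher and 719 to 967 lower. Fewer samples enter these last fits, and the fit of the knockout libraries alone also estimates its own spread. The causes of the changed counts, there and on the TPM scale, were not tested. Up to 204 named genes were followed, 200 of which entered the fit of the 6 knockout libraries alone. None of those called in the main fit changed direction in these fits. The direction of named genes that were not called was not followed. The difference between genotypes had 26 calls with DESeq2, and 0 to 9 without single libraries, with 9 without wild type IFN library 6. The Rpl13a log2 ratio was -0.04 on the deposited TPM and -0.21 to 0.68 without single libraries, negative without untreated 1 (-0.07) or IFN 6 (-0.21), and that of Lyz2 -1.26 to -0.58. No paired analysis was possible because untreated and IFN-treated knockout libraries share no number, so the main comparison has no replicate block. For the difference, where libraries of the genotypes share numbers, the fit with the number as a block called 0 genes, with 1185 at an unadjusted p under 0.05. Same-numbered libraries correlated at 0.0356 to 0.746 over 9712 genes, and not every library correlated best with its own number.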

Other observations

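The following gene groups were chosen after their values were seen and are given as values. Over all tested genes 12.2% were called higher and 8.42% lower. Of 25 genes known as targets of NRF2, the regulator of the antioxidant response, 17 fell and 2 rose (median log2 fold change -0.97, and -1.25 on the TPM scale). Without untreated 3 and IFN 6 the falls numbered 8. Cat, catalase, stood at 463.2, 701.8 and 458.2 CPM untreated and 157.1, 160.8 and 127.6 CPM after IFN (-1.87, SE 0.285, edgeR adjusted p = 0.00021). Gstm1, a glutathione transferase, was at 218.9, 282.7 and 133.2 CPM and fell to 41.7, 60.4 and 40 CPM (-2.16, SE 0.328). Gclc, the catalytic subunit of glutathione synthesis, fell from between 79.8 and 89.5 CPM to between 36.2 and 38.4 CPM (-1.18, SE 0.252). Txn1 (0.93) and Blvrb (0.66) were called higher, and the list held 0 or 1 rises without any single knockout library. Among 16 tested genes of iron handling 7 fell (43.8%) and 2 rose (12.5%). Tfrc, the transferrin receptor, stood at 124.8, 206 and 145 CPM before and 51.9, 99.1 and 63.5 CPM after IFN (-1.15, SE 0.276). Falls of iron genes numbered 3 without untreated 2 and 4 without IFN 4 or IFN 6, and 11 on the TPM scale. The rises numbered 0 without untreated 1, untreated 3 or IFN 5, and 0 on the TPM scale. The lists share Hmox1, Ftl1 and Fth1.

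Of 23 tested interleukin receptor genes 8 rose and 3 fell, and none fell without untreated 1. Il12rb1, a chain of the receptors of IL12 and IL23, was at 0.170, 0.286 and 0.659 CPM untreated and 85.1, 89.8 and 65.1 CPM after IFN (log2 fold change 7.70, SE 0.494, edgeR adjusted p = 3.48e-08). Il12rb2, its partner for IL12, rose by 2.69 (SE 0.316) and Il2rg, the common gamma chain, by 2.71 (SE 0.369). Of 9 tested plexins, the receptors of semaphorins, 5 fell and none rose (median -1.39). Plxnd1 stood at 261, 266.1 and 150.3 CPM before and 45.9, 54.5 and 29.5 CPM after (-2.38, SE 0.301). Igf1, a growth factor made by macrophages, fell by 2.43 on the log2 scale (SE 0.253), and Glul, glutamine synthetase, fell by 2.36 (SE 0.223).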
